A study of Mus musculus with 2 samples.

Results

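The genes described here encode 34 enzymes and regulators that build cholesterol and fatty acids from acetyl-CoA, in colon epithelial cells of C57BL/6 mice. They were taken by symbol from a fixed list, and all 34 of the 22350 symbols in the deposited tables had a value above 0 in both libraries. The wild type group is 1 library and the Pkm2-/- group is 1 library, and mice of both genotypes were given 2.5% DSS for 3 days. DSS is dextran sulfate sodium, which damages the gut lining and is used to model colitis. No group without DSS was analysed here. The sources used here do not give how the Pkm2 allele was made, how many animals stand behind each library or whether animals were pooled. With 1 library per genotype there is no replicate error and no test, and every difference below describes these 2 libraries. Values are FPKM, fragments per kilobase of transcript relative to the mapped total, so levels can be compared between genes per length. In brackets the wild type library comes first and the knockout library second.

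Cholesterol synthesis starts with the condensation of acetyl-CoA units, passes through mevalonate and the isoprenoid farnesyl diphosphate, and closes squalene into a sterol ring that is then trimmed and reduced. Fatty acid synthesis draws on the same acetyl-CoA, which ATP citrate lyase makes from citrate, and its products are lengthened by elongases and given cis bonds by desaturases. Both branches are governed by the SREBP transcription factors, which the escort protein SCAP moves from the endoplasmic reticulum to the Golgi for cleavage and which INSIG proteins hold back when sterols are plentiful. Pkm2 is an isoform of the glycolytic enzyme pyruvate kinase, whose product pyruvate can feed citrate and so this pathway. In the intestine, new membrane lipid is needed by the dividing cells of the crypts, and polyunsaturated fatty acids are the source of prostaglandins.

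The lowest FPKM values stepped at the worth of 1 fragment, which gave about 18800000 fragments for the wild type and 21900000 for the knockout library. At 1 FPKM, about 38 and 44 fragments stood behind a 2 kb transcript. The targeted gene Pkm was at 281 FPKM in the wild type and 86.2 FPKM in the knockout library, and this gene-level value covers both of its splice isoforms. All 10 markers of colon epithelium were present, with the keratin Krt8 the most abundant (1814 and 2164 FPKM). They summed to 5278 and 6275 FPKM, with 9 of 10 higher in the knockout library and a median log2 ratio of 0.26. Summed levels of dividing crypt cell genes were 198 and 320 FPKM, with 10 of 10 higher in the knockout library, and those of differentiated colonocyte genes were 6526 and 4022.5 FPKM, with 8 of 10 lower. T cell genes summed to 20.9 and 84.6 FPKM, macrophage and dendritic cell genes to 12.5 and 26.1 FPKM, and B and plasma cell genes to 10 and 34.6 FPKM. Of 8 macrophage and dendritic cell genes averaging at least 1 FPKM, 6 were higher in the knockout library. Laptm5 was the most abundant of them (3.29 and 9.84 FPKM), while Cd68 (1.63 and 1.56 FPKM) and Lyz2 (2.97 and 2.74 FPKM) were slightly lower. Fibroblast and smooth muscle genes summed to 4.42 and 1.6 FPKM, endothelial genes to 1.46 and 0.82 FPKM, and erythrocyte genes to 18.6 and 1.20 FPKM. Of 9 adipocyte genes, Plin1, Lep, Fabp4, Cfd and Retn were listed in neither library, Adipoq was at 0.095 FPKM and at 0, and the most abundant was the lipid droplet gene Cidec (5.83 and 1.94 FPKM). In bulk samples, fewer cells of a type and less RNA per cell cannot be told apart. The part of these cell type genes in the differences below was not tested.

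None of the 34 listed genes differed by 1.5-fold between the 2 libraries. The 4 of them that differed most were desaturases and an elongase of fatty acids. On the scale log2((knockout FPKM + 1)/(wild type FPKM + 1)), called the log2 ratio here, 0 of the 34 genes reached 1.5-fold higher in the knockout library, where 4.46% of the 12429 symbols averaging at least 1 FPKM did. Likewise 0 of 34 were at least 1.5-fold lower, against 5.29% of all symbols. At a ratio of 5 to 4 on this scale, 7 of 34 were higher, against 15.7% of all symbols, and 0 were lower, against 12.2%. These 7 were Fads2, Scd2, Elovl5, Fads1, Acly, Idi1 and Stard4. Log2 ratios above 0 were found for 25 of 34 genes, against 58.8% of all symbols, and with the library medians set equal for 20 of 34, against 48.1%. The median log2 ratio of the 34 was 0.11, and that of all symbols was 0.06.

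**Figure D1:**
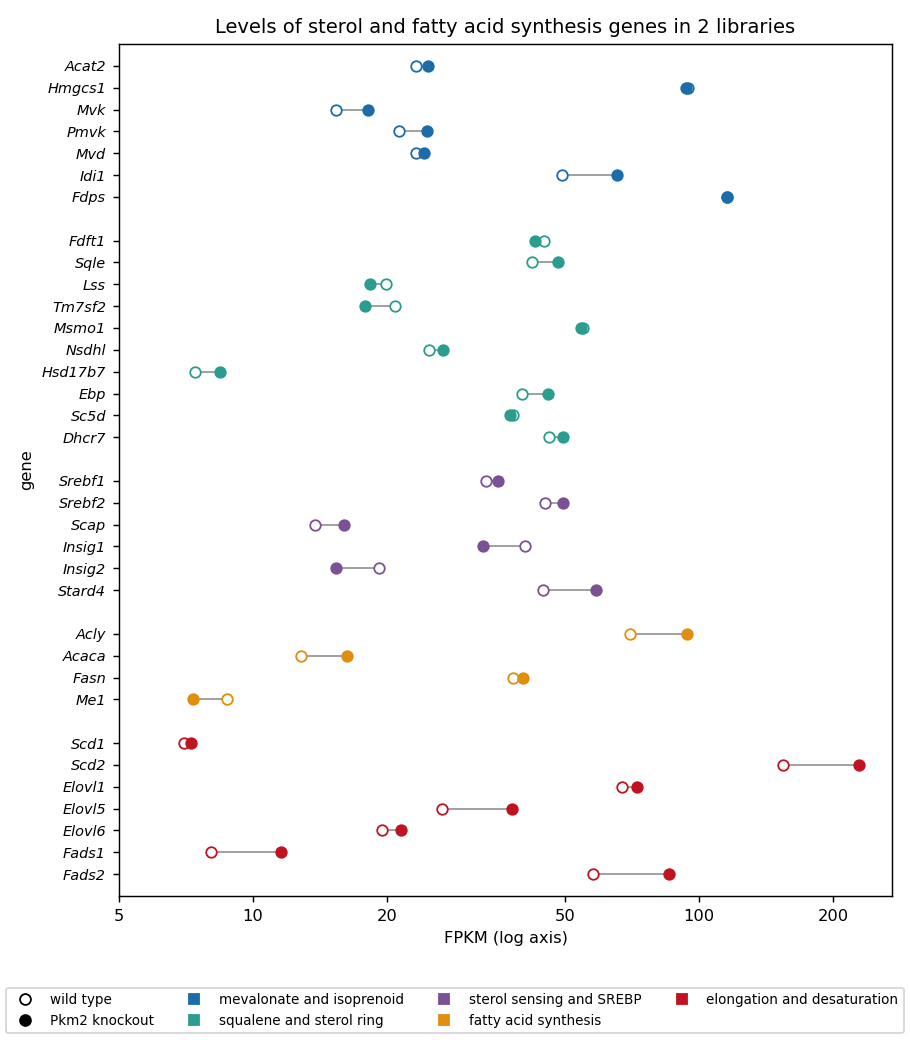
FPKM of each gene on a log axis, open circles for the wild type and filled circles for the Pkm2 knockout library, coloured by role. Levels ran from 7.0 FPKM (Scd1) to 154 FPKM (Scd2) in the wild type library, and the widest gaps between the circles are in the elongation and desaturation group.

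Within each library the genes covered a wide range of levels with nearly the same order. In the wild type library the lowest was Scd1 at 7.0 FPKM, the median was 35.8 FPKM and the highest was Scd2 at 154 FPKM. In the knockout library the lowest was again Scd1 at 7.25 FPKM, the median was 36.5 FPKM and the highest was again Scd2 at 228 FPKM. Spearman's rho of the levels between libraries was 0.982 over the 34 genes, and 0.965 over all 12429 symbols, which share their library and depth. All 34 genes had a mean of at least 5 FPKM. The median absolute log2 ratio was 0.175 among the 34 genes and 0.196 among all symbols, so the typical size of a difference was similar, while the SD, which the extremes set, was 0.23 and 0.47.

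Sequences upstream of 6 genes are shown as examples. They are Hmgcs1 and Mvd of the mevalonate steps, Insig2 of sterol sensing, which was lower in the knockout library, and Acly, Fasn and Elovl5 of the fatty acid branch. No squalene or sterol ring enzyme is among them, and neither are Fads2 and Scd2, which had the highest ratios. Each is the 250 bases before an annotated start in RefSeq (GRCm38.p6), written 5′ to 3′ on the strand of the gene. The windows are chr13:119690101-119690350 (plus strand) for Hmgcs1, chr8:122443423-122443672 (minus) for Mvd, chr1:121332590-121332839 (minus) for Insig2, chr11:100528001-100528250 (minus) for Acly, chr11:120824548-120824797 (minus) for Fasn and chr9:77917115-77917364 (plus) for Elovl5. Capitals mark matches on either strand to the SREBP site TCACNCCAC, the NF-Y site CCAAT and the E-box CACGTG, and no motif contains another. The matches nearest the start in Fasn, on opposite strands, overlap each other.
Hmgcs1: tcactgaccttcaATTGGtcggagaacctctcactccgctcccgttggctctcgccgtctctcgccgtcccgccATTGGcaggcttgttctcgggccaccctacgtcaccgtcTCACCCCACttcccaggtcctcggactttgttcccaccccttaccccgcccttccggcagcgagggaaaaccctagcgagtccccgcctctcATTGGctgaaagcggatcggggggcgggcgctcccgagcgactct
Mvd: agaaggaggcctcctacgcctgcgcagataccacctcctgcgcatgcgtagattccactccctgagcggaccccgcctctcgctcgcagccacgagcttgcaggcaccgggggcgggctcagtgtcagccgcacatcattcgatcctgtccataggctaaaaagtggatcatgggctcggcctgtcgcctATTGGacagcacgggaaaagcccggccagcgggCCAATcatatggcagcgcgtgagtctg
Insig2: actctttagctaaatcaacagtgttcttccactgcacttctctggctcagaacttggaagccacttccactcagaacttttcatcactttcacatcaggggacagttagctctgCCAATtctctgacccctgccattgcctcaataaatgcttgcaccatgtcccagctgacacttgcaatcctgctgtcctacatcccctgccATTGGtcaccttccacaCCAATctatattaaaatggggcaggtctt
Acly: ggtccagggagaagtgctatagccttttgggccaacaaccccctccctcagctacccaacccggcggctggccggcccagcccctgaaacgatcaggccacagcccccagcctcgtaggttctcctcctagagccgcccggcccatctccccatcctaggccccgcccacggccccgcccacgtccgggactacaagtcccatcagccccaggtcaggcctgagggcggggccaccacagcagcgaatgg
Fasn: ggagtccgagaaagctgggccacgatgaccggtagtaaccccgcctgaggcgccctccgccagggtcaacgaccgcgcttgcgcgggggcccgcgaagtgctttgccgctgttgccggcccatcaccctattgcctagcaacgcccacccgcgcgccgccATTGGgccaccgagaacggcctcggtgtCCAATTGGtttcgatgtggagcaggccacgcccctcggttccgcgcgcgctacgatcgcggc
Elovl5: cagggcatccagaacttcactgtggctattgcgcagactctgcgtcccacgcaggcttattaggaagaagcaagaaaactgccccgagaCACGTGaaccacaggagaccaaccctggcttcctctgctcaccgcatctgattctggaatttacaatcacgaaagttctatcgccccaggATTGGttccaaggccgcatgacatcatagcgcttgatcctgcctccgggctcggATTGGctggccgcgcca

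The SREBP motif was found in 1 window of the list, that of Hmgcs1, 137 bases before the start. Its 3 NF-Y matches begin 237, 176 and 45 bases before the start, and Elovl5 holds an E-box at 161 and NF-Y matches at 71 and 17 bases. The promoter table matched 27 of the 34 genes, with 37 windows. NF-Y, a factor that often binds beside SREBP, had a match in 22 of the 37 windows (59.5%), against 33.8% of all 32851 windows and 35.4% of the 11516 windows of symbols with a mean of at least 1 FPKM. E-boxes were in 6 of 37 windows (16.2%), against 6.02% of all windows and 8.34% of those of expressed symbols. The SREBP motif was in 1 of 37 windows (2.70%), against 1.05% of all windows. The windows of Acly and Fads2, both among the 7 higher genes, held none of the 3 motifs, and that of Idi1, another of them, held 2 NF-Y matches. Scd2, Fads1 and Stard4, also among the 7, had no window. Insig2 has other annotated starts, whose windows (chr1:121327679-121327928 and chr1:121328025-121328274) held none of the 3 motifs. Which start was used in these cells was not tested. A match is a run of letters and not a measured binding site, and the lack of one says only that these letters are not in the window.

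The early enzymes, from acetyl-CoA to farnesyl diphosphate, held 7 genes, whose summed level was 342 FPKM in the wild type and 366 FPKM in the knockout library. Their median log2 ratio was 0.08, and -0.001 with equal library medians. Fdps, which makes farnesyl diphosphate, was the most abundant of them (115 and 116 FPKM), and its ratio of 1.003 had a 95% counting interval of 0.954 to 1.05. A counting interval is a Clopper-Pearson interval on the fragments that the FPKM imply, and it covers counting error only. The fragments were taken with the longest annotated transcript of each gene. Where shorter transcripts prevail, that overstates the fragments and makes the interval too narrow. Hmgcs1, the cytosolic synthase that forms HMG-CoA and carries the SREBP match shown above, was at 94.2 FPKM in the wild type and 93.4 FPKM in the knockout library. As deposited, the pair of most abundant mevalonate enzymes thus had ratios within counting error of 1. With equal library medians their log2 ratios were -0.08 (Fdps) and -0.097 (Hmgcs1), a shift larger than the counting error of each. Of their exon bases, 26.7% in Fdps and 12.1% in Hmgcs1 overlap Gm43738 (0.522 and 0.509 FPKM) and Gm48342, which was listed in neither library.

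Idi1, the isomerase that makes dimethylallyl diphosphate, differed most in this group. It was at 49.2 FPKM in the wild type and 65.5 FPKM in the knockout library, 1.33-fold higher (95% counting interval 1.27 to 1.396). Of its longest transcript's words of 31 bases, 32.0% also occur in transcripts of other genes, chiefly the pseudogene Gm13502 (2.33 and 4.24 FPKM), so its level is uncertain to that extent. The kinases were slightly higher, with Mvk, mevalonate kinase, at 15.3 and 18.1 FPKM (1.18-fold, interval 1.05 to 1.33). Pmvk, phosphomevalonate kinase, was at 21.3 and 24.5 FPKM (1.15-fold, interval 1.02 to 1.297). Acat2, the cytosolic thiolase that starts the pathway, was at 23.2 and 24.6 FPKM and shares 50.5% of its words with the related gene Acat3 (4.22 and 4.66 FPKM). Mvd, the mevalonate diphosphate decarboxylase, was at 23.1 and 24.2 FPKM. The intervals of Acat2 and Mvd included 1, and both changed sign with equal library medians, as did Fdps.

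The 10 enzymes from squalene to cholesterol had small ratios in both directions. Their summed level was 339 FPKM in the wild type and 350 FPKM in the knockout library, with 5 log2 ratios above 0 and 5 below, and a median of 0.04 that became -0.04 with equal library medians. Msmo1, a methylsterol oxidase, was the most abundant (54.9 and 54.4 FPKM), and Sc5d, the sterol desaturase, was likewise level (38.2 and 37.6 FPKM). Fdft1, squalene synthase, which commits farnesyl diphosphate to sterols, was at 45.0 and 43.0 FPKM. The intervals of these 3 included 1. Fdft1 overlaps the cathepsin gene Ctsb (100.2 and 100.7 FPKM) on the other strand over 18.3% of its exon bases, and whether the counting used strand is not given, so some Ctsb fragments could be counted there.

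Squalene epoxidase, Sqle, a rate-limiting step, was at 42.1 FPKM in the wild type and 48.3 FPKM in the knockout library (1.15-fold, interval 1.09 to 1.21). Ebp, the sterol isomerase, was at 40.1 and 45.8 FPKM (1.14-fold, interval 1.06 to 1.23). Hsd17b7, a keto-steroid reductase, had the lowest level of the group (7.42 and 8.44 FPKM). Dhcr7, which performs the last reduction to cholesterol in one branch of the pathway, was at 46.0 and 49.6 FPKM. These 4 were the ring enzymes whose counting interval lay above 1, by small amounts. Nsdhl, a sterol dehydrogenase (24.8 and 26.6 FPKM), had an interval that included 1. In contrast Lss, lanosterol synthase, which closes the ring, was at 19.9 FPKM in the wild type and 18.3 FPKM in the knockout library, a difference of 1.09-fold (interval 1.02 to 1.16). Tm7sf2, a sterol reductase, had the lowest ratio of the group, at 20.8 and 17.8 FPKM (1.17-fold lower, interval 1.04 to 1.31), and 12.1% of its exon bases overlap Vps51 on the same strand (20.8 and 24.3 FPKM).

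**Figure D2:**
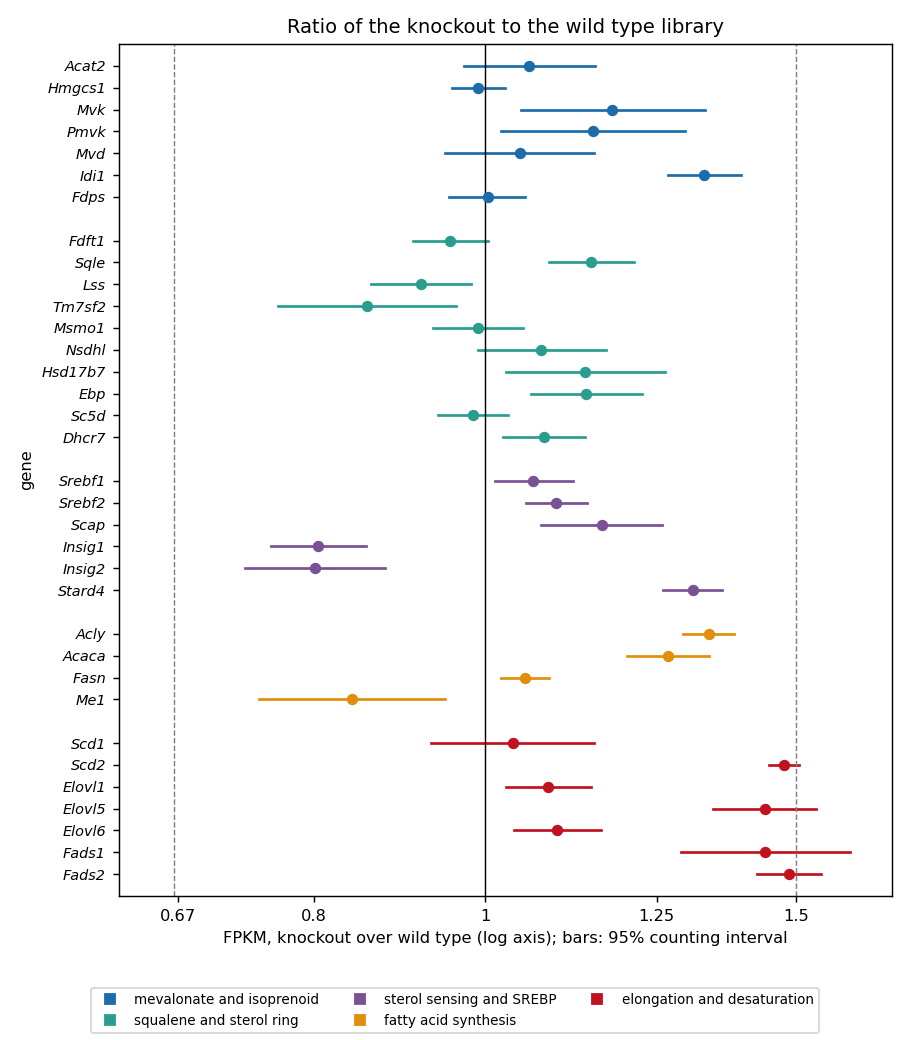
Ratio of FPKM in the knockout over the wild type library on a log axis, with 95% counting intervals as bars and dashed lines at 1.5-fold in each direction. No ratio passed the dashed lines, and Fads2 (1.485), Scd2 (1.48), Fads1 (1.44) and Elovl5 (1.44) lie nearest to them, and Insig1 and Insig2 (0.80) lie farthest to the left.

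The genes of sterol sensing went both ways, with the INSIG genes at the lower end of all 34 and the carrier gene Stard4 near the upper end. Insig1, itself a well-known SREBP target, was at 40.7 FPKM in the wild type and 32.7 FPKM in the knockout library, a 1.24-fold lower level (interval 1.17 to 1.32). Insig2, with an upstream window shown above, was at 19.2 and 15.4 FPKM, 1.248-fold lower (interval 1.14 to 1.37). The ratio of Insig1 to Insig2 was therefore nearly equal, at 2.12 and 2.13. These were the lowest log2 ratios of the list, -0.31 and -0.30, and 13.2% and 13.4% of all symbols lay below them.

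As deposited, the genes of the factors that INSIG proteins restrain were slightly higher in the knockout library. Srebf2, the gene of the factor that favours sterol genes, was at 45.1 and 49.5 FPKM (1.10-fold, interval 1.05 to 1.14). Srebf1, whose product favours fatty acid genes, was at 33.3 and 35.4 FPKM (1.06-fold, interval 1.01 to 1.12), and a gene-level value does not separate its promoter isoforms. Scap, the escort of both, was at 13.8 and 16.0 FPKM (1.16-fold, interval 1.08 to 1.26). Stard4, which carries cholesterol between membranes, was at 44.8 FPKM in the wild type and 58.6 FPKM in the knockout library, 1.31-fold higher (interval 1.26 to 1.36). The median log2 ratio of the 6 genes was 0.11, and 0.03 with equal library medians. Srebf2 and Srebf1 had log2 ratios of 0.131 and 0.088, and of 0.048 and 0.005 with equal library medians. The median of all symbols was 0.062 as deposited and -0.013 with equal medians.

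In fatty acid synthesis, the listed genes Acly and Acaca were higher in the knockout library, while the synthase gene Fasn was nearly level. Acly, the ATP citrate lyase that makes cytosolic acetyl-CoA, was at 70.1 FPKM in the wild type and 93.8 FPKM in the knockout library, 1.34-fold higher (interval 1.29 to 1.38). Acaca, the acetyl-CoA carboxylase that makes malonyl-CoA, was at 12.8 and 16.2 FPKM, 1.27-fold higher (interval 1.20 to 1.34), and 56.8% of its words also occur in the pseudogene Gm5182, which was listed in neither library. Fasn, fatty acid synthase, was at 38.2 and 40.3 FPKM (1.05-fold, interval 1.02 to 1.09), and its log2 ratio changed sign with equal library medians. Me1, the cytosolic malic enzyme that supplies NADPH, was lower, at 8.73 and 7.33 FPKM (1.19-fold lower, interval 1.05 to 1.34). Me1 shares 42.2% of its words with other genes, chiefly the pseudogene Gm7049, which was listed in neither library.

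Elongation and desaturation was the group with the largest differences. Its 7 genes summed to 340 FPKM in the wild type (154 FPKM of it Scd2) and 465 FPKM in the knockout library (228 FPKM of it Scd2), 1.37-fold higher. The median log2 ratio was 0.48, the mean was 0.34, and the other 27 genes of the list had a median of 0.09. The group was not uniform, since 4 genes were 1.44-fold to 1.485-fold higher and the other 3 were at most 1.10-fold higher.

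Of those 4 genes, Fads2, Fads1 and Elovl5 form the branch that turns dietary linoleic and alpha-linolenic acid into long polyunsaturated fatty acids such as arachidonic acid. Fads2, the desaturase that opens this branch, was at 57.8 FPKM in the wild type and 85.8 FPKM in the knockout library, 1.485-fold higher (interval 1.42 to 1.55). Elovl5, the elongase that follows it, was at 26.5 and 38.1 FPKM, 1.44-fold higher (interval 1.345 to 1.54). Fads1, the desaturase after the elongase, was at 8.03 and 11.6 FPKM, 1.44-fold higher (interval 1.29 to 1.61). The ratios of these 3 consecutive steps lay within each other's counting intervals, and 95.1%, 94.0% and 93% of all symbols had a lower log2 ratio than Fads2, Elovl5 and Fads1. Elovl5 and Fads1 shared none of their words with other genes, and Fads2 shared 0.769%. The grouping of these 3 was made after their values were seen.

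Fads1 (chr19:10182888-10196877, plus strand, GRCm38) and Fads2 (chr19:10062765-10101746, minus strand) lie in a cluster with the related gene Fads3 (chr19:10041569-10060110). Fads3 was at 4.76 FPKM in the wild type and 8.06 FPKM in the knockout library, 1.69-fold higher (interval 1.48 to 1.94). Beside Fads1, the DNA replication gene Fen1 was at 12.7 and 22.2 FPKM, 1.75-fold higher (interval 1.585 to 1.94). Tmem258 was at 23.5 and 29.1 FPKM, and Myrf was near 0, at 0.116 and 0.052 FPKM. At the ends of the region, Rab3il1 was near 0 as well (0.095 and 0.145 FPKM) and Dagla was at 4.28 and 5.07 FPKM. Higher values in the knockout library were common among all symbols, at 58.8%. At least 1.5-fold higher on the log2 ratio scale were 4.46% of all symbols. Fads3 (0.654) and Fen1 (0.765) were among these, and Tmem258 (0.299) and Dagla (0.201) were not. No exon of Fads1 or Fads2 overlaps that of another gene. These neighbours were looked up after the values of Fads1 and Fads2 were seen.

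The remaining gene of the 4, Scd2, encodes a stearoyl-CoA desaturase that makes monounsaturated fatty acids. It was the most abundant gene of the list in both libraries, at 154 and 228 FPKM, 1.48-fold higher in the knockout library (interval 1.447 to 1.505). Its paralog Scd1, the main form in liver and fat, was the least abundant, at 7.0 and 7.25 FPKM (1.04-fold, interval 0.931 to 1.15), and its log2 ratio changed sign with equal library medians. Scd2 thus exceeded Scd1 by 22.1-fold without the knockout and by 31.4-fold with it. The 2 transcripts share 5.26% of the words of Scd1. Because Scd2 was far more abundant, even its reads over that part could weigh on the value of Scd1. The level and ratio of Scd1 and the excess of Scd2 over it are uncertain to that extent, which was not tested.

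The other elongases of the list had smaller ratios. Elovl1, which serves very long chains, was at 67.01 and 72.7 FPKM (1.08-fold, interval 1.03 to 1.15). Elovl6, which lengthens the products of fatty acid synthase, was at 19.5 and 21.4 FPKM (1.10-fold, interval 1.04 to 1.16). The interval of Elovl5 thus lay above those of both other elongases of the list. Elovl7, an elongase outside the list that also serves saturated chains, was at 16.8 and 22.6 FPKM (1.34-fold higher).

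**Figure D3:**
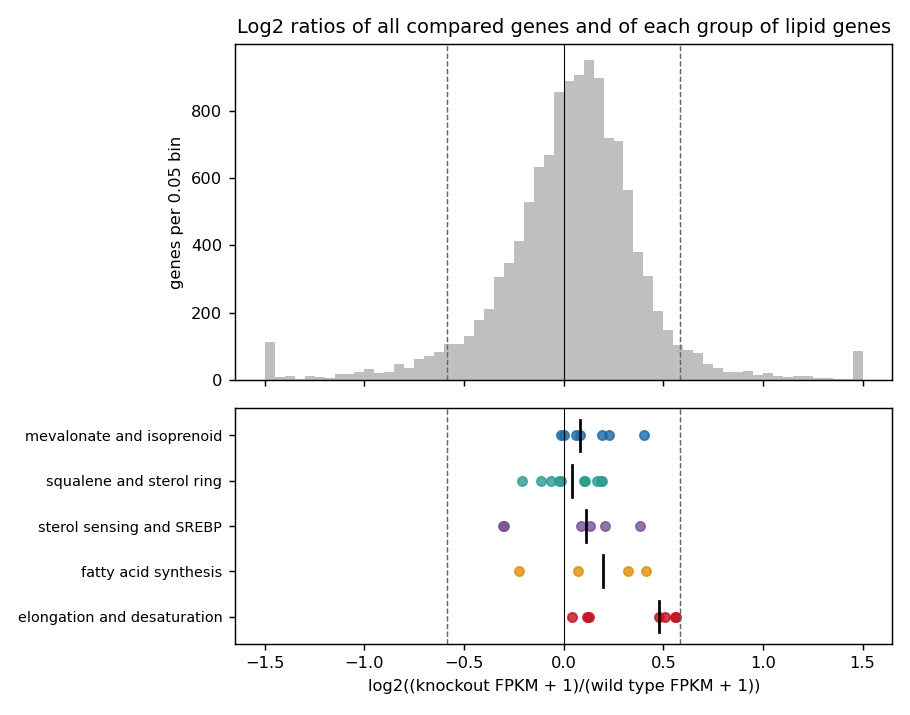
Histogram of log2 ratios of 12429 symbols in bins of 0.05, with values beyond 1.5 placed in the end bins, and below it the genes of each role as points with the median as a black line. Dashed lines mark 1.5-fold. The elongation and desaturation group has its median at 0.48, and the other groups have theirs between 0.04 and 0.20.

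Counting error set against these sizes, the interval lay above 1 for 20 of the 34 genes, against 37.7% of all symbols with a transcript length, and below 1 for 5, against 22.9%. The 5 were Insig1, Insig2, Me1, Tm7sf2 and Lss. With equal library medians the counts were 11 and 10, against 27.3% and 31.1%. Counting intervals narrow as fragments rise. All 34 genes averaged at least 5 FPKM and the compared symbols at least 1 FPKM, so these shares were not matched for fragment number. Equal medians multiply every knockout value by 0.943, so the small ratios among the sterol enzymes depended on how the libraries were scaled to each other. Fads2, Scd2, Elovl5 and Fads1 had log2 ratios of 0.48, 0.475, 0.43 and 0.40 under equal medians, which shift all genes alike and cannot alter their order.

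Other genes around the pathway were described from lists of 78 further symbols, of which 62 had a mean of at least 1 FPKM. On the log2 ratio scale 3 were past 1.5-fold higher and 4 past 1.5-fold lower, which is near the 4.46% and 5.29% of all symbols, and 0.03 was their median. The 15 measured sterol genes outside the main list included 0 past 1.5-fold on the higher side and 1 on the lower. The demethylase Cyp51, named here for its place in the route to cholesterol, was at 39.5 and 42.6 FPKM (1.08-fold, interval 1.03 to 1.13). The lower one was Por, which passes electrons to squalene epoxidase and to cytochromes P450, at 57.1 FPKM in the wild type and 36.6 FPKM in the knockout library, a 1.56-fold lower level (interval 1.475 to 1.65).

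Genes of sterol storage, efflux and trafficking included larger ratios in both directions than any of the 34 genes. Of 11 measured genes, 2 passed 1.5-fold on the higher side and 2 on the lower, against 4.46% and 5.29% of all symbols, and their median log2 ratio was -0.05. Soat2, which esterifies cholesterol for storage or export, was at 1.08 FPKM in the wild type and 3.01 FPKM in the knockout library, 2.78-fold higher (interval 1.98 to 3.97), and the sterol exporter gene Abcg1 was at 1.39 and 2.76 FPKM (1.99-fold, interval 1.64 to 2.43). Lipa, the lysosomal lipase that frees cholesterol from its esters, was at 11.3 and 5.32 FPKM, 2.12-fold lower (interval 1.86 to 2.43). Cyp27a1, a sterol hydroxylase, was at 9.91 and 5.69 FPKM, 1.74-fold lower (interval 1.47 to 2.06). Nr1h2, which encodes a sterol-sensing nuclear receptor, was the most abundant, at 46.3 and 49.0 FPKM.

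Among 36 measured genes of fatty acid and glycerolipid synthesis, 1 passed 1.5-fold on each side on the log2 ratio scale, against 4.46% and 5.29% of all symbols, and their median log2 ratio was 0.02. The higher one was Fads3, given above. The lower one was Dgat2, which performs the last step of triglyceride synthesis, at 29.4 FPKM in the wild type and 15.7 FPKM in the knockout library, which is 1.87-fold lower (interval 1.71 to 2.05). The most abundant was Pgd, an NADPH-producing enzyme of the pentose phosphate pathway (133 and 149.95 FPKM). Acyl-CoA synthetases, which activate fatty acids, differed among themselves. Acsl4, which prefers arachidonic acid, was at 3.92 and 6.35 FPKM and Acsl5 at 35.8 and 45.7 FPKM, whereas Acsl3 was at 65.4 and 48.4 FPKM and Acsl1 at 9.46 and 6.44 FPKM. As plain ratios, which the added 1 FPKM does not damp, 3 more passed 1.5-fold: Acsl4 (1.62-fold higher), the acyltransferase gene Gpam (5.09 and 3.25 FPKM, 1.57-fold lower) and the mitochondrial malic enzyme gene Me3 (2.43 and 1.38 FPKM, 1.76-fold lower). The synthetases, Gpam, Me3 and Elovl7 were named after their values were seen.

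**Figure D4:**
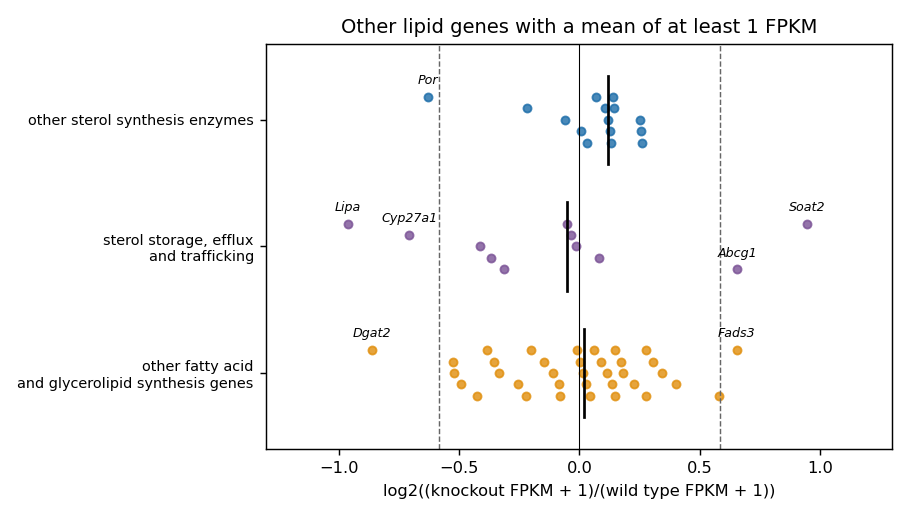
Log2 ratios of 62 further lipid genes in 3 lists, each averaging at least 1 FPKM, with the median of each as a black line, dashed lines at 1.5-fold and the names of genes beyond them. Points are shifted vertically only to separate them, and Lipa and Dgat2 have the lowest and Soat2 the highest ratio.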

How the data were processed

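Messenger RNA of colon epithelial cells was sequenced, with 1 library per genotype. The authors deposited FPKM for each Ensembl gene in files without column names. That unit rests on the range of the values and on the submitters' processing notes, which name Bowtie2 2.2.9, TopHat2 2.1.1, Cufflinks 2.2.1, Cuffdiff 1.3.0 and 2.2.1, and the build mm8. The deposited loci overlapped the gene's GRCm38 position for 99.9% of the 22256 IDs found in GENCODE M21, so GRCm38 coordinates are given.

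Rows sharing a symbol were summed and an unlisted gene was taken as 0. Symbols averaging at least 1 FPKM were compared with a pseudocount of 1, which understates folds of low genes, while folds beside FPKM are plain ratios. Intervals used the worth of 1 fragment, read from genes with 1 transcript over 1.5 kb, and each gene's longest GENCODE transcript. The functions were tested on simulated data. Python 3.11.15, pandas 2.3.3 and scipy 1.17.1 were used. With 1 library per genotype no test was run.

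The genes and lists were chosen with earlier results of these data known. The text names all 34 genes, other lipid genes past 1.5-fold on the log2 ratio scale and the most abundant of each list, of which 1 is not reported here. Alternatives were 2 pseudocounts, 2 filters, 3 scalings, 2 fold thresholds and the mean.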

Additional observations from a re-analysis of the deposited data

How the results depend on the processing

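The counts at 1.5-fold were 0 higher and 0 lower under both other pseudocounts and all 3 scalings. They could not differ under the other filters, which all 34 genes pass, or at 2-fold. At a ratio of 5 to 4 the count of higher genes was 7. With equal library medians, the median log2 ratio was 0.03 over all 34 genes (0.028 before rounding), 0.03 for sterol sensing (0.027), and 0.12 for fatty acid synthesis, which was 0.13 with equal upper quartiles. The median of elongation and desaturation was 0.35 with a pseudocount of 5 and its mean was 0.34. In a check added after the data were seen, the counts of counting intervals above and below 1 were 11 and 10 with equal medians, and 13 and 8 with equal upper quartiles. Rescaling also moved the calls over all symbols, with 3.36% higher and 6.44% lower at 1.5-fold under equal medians. Signs changed for Acat2, Mvd, Fdps, Fasn and Scd1 with equal medians, and for Mvd, Fdps and Scd1 with equal upper quartiles. Leaving out a library was not possible with 1 per genotype. No paired analysis was possible because each genotype has 1 library.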

Other observations

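Genes around arachidonic acid, a product of the Fads1, Fads2 and Elovl5 steps, were also looked up. Their list was made after the values above were seen. Of 16 measured prostaglandin and leukotriene genes, 2 passed 1.5-fold on the higher side and 3 on the lower on the log2 ratio scale, against 4.46% and 5.29% of all symbols. Alox15, a lipoxygenase, was at 0.574 FPKM in the wild type and 7.85 FPKM in the knockout library, 13.7-fold higher (95% counting interval 9.19 to 21.2). The prostaglandin E synthase gene Ptges2 was at 9.88 and 16.1 FPKM, 1.62-fold higher (interval 1.5 to 1.76). The secreted phospholipase genes Pla2g2a (13.4 and 2.71 FPKM) and Pla2g5 (12.8 and 7.39 FPKM) were lower. Hpgd, which inactivates prostaglandins, was the most abundant of the list and was lower too (138 and 90.4 FPKM), and Ptgs2 was near 0 in both libraries (0.024 and 0.033 FPKM). Ptgs1 was at 1.21 and 1.91 FPKM, 1.58-fold higher as a plain ratio (interval 1.16 to 2.17). Its log2 ratio of 0.399 did not reach 1.5-fold.

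Genes of triglyceride handling and lipid droplets, also listed after the values were seen, had log2 ratios above 0 for 2 of 12 measured genes, against 58.8% of all symbols. On that scale 4 were past 1.5-fold lower, against 5.29%, and 0 past 1.5-fold higher, against 4.46%, with a median of -0.30. Apob, the structural protein of lipoproteins, was at 22.2 FPKM in the wild type and 8.20 FPKM in the knockout library, a 2.71-fold lower level (interval 2.585 to 2.84). Mgll, a monoglyceride lipase, was at 20.4 and 10.2 FPKM, and the droplet genes Cideb (38.1 and 20.8 FPKM) and Cidec were lower as well. Fabp2, a fatty acid carrier of enterocytes, was higher (139.8 and 162 FPKM). Differentiated colonocyte genes were lower in the same library, as given above, and their part in these values was not tested.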
